A study of Gallus gallus with 6 samples.

Results

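The DNA replication and repair genes described here were the 44 genes, of 4932 named on the array, whose chicken RefSeq symbols begin with MCM, RPA, RAD or LIG and a digit, with ORC, GINS, RFC, XRCC, FANC, BRCA, MSH, MLH or ERCC, or that name a DNA polymerase (POL and a letter from A to N) or PARP1. ORC1, POLQ, FANCG and LIG4 were set aside, and POLDIP3 and PARP11, which share the letters but are neither a DNA polymerase nor PARP1, were not taken. These 44 genes carried 95 of the 43603 probes, and each gene was read through its brightest probe. The cells were DT40, a line of chicken B cells from a lymphoma of the bursa. RNA of 3 IRF4-deficient cultures was set against RNA of 3 wild-type cultures, all untreated and each an independent culture on 1 array. IRF4 belongs to the interferon regulatory factors, and this transcription factor takes part in the activation of B cells. The number of knockout clones behind the cultures and the site of the disruption are not stated in the labels.

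Replication starts where the origin recognition complex (ORC) loads the MCM helicase, which GINS and CDC45 then switch on. Behind the helicase, RPA coats the single strands and the RFC clamp loader places the sliding clamp PCNA for the polymerases. Damage is handled by separate pathways, among them homologous recombination (BRCA1 and BRCA2 among its genes), the Fanconi anaemia pathway for crosslinks, nucleotide excision repair and break repair. DT40 cells have been widely used to study these pathways, since they diversify their immunoglobulin genes by gene conversion, a form of homologous recombination, and integrate targeting constructs readily.

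The brightest IRF4 probe checked the labels: its log2 fold change, knockout minus wild type, was -4.21 ± 0.10 (SE, limma adjusted p = 4.9e-07), and an exact permutation test gave p = 0.1, the smallest that 3 against 3 arrays allow. That probe was still above background on all 3 knockout arrays, at a mean log2 signal of -1.20 against 3.01 in wild-type cultures. The other IRF4 probe was above background on all 3 wild-type arrays and on no knockout array, and was at least 11.2-fold lower. Between 62.4% and 68.2% of gene spots an array were well above background, and none was saturated. All 9 B cell markers examined were well above background on every array, among them CD79B, BTK, EBF1 and PAX5, with a summed linear signal of 195 to 203 times the array's 75th percentile in knockout and 132 to 145 times in wild-type cultures. Most of that gap came from CD72 (log2 fold change 3.21). Of the 9 markers 6 were called higher, among them EBF1 (0.23) and PAX5 (0.24), and 3 were not called, among them CD79B (0.15) and BTK (-0.09). The summed linear signal of 6 fibroblast markers, most of it from COL1A2, moved with the genotype. It was 5.67 to 6.42 times the array's 75th percentile in knockout cultures and 0.344 to 0.371 times in wild-type cultures. In that list COL1A2 (log2 fold change 4.24), COL3A1 (0.72) and COL6A1 (0.67) were called higher. COL3A1 and COL6A1 were dim, with mean log2 signals of -5.83 and -6.27 in knockout cultures. COL3A1 was above background on 2 of the 3 wild-type arrays and COL6A1 on none, so both passed the filter through the knockout arrays only. DCN and TWIST1 did not pass the background filter, and THY1 was not above background on any array. The summed signal of 8 T cell markers, most of it from CD3D, was 75 to 88.8 in knockout and 68.5 to 70.8 in wild-type cultures, but single markers went both ways, with CD3E (-3.44), CD8A (-1.13) and CD247 (-0.26) called lower, CD5 (1.56) called higher and CD4 not above background. The sum over 6 myeloid markers was 0.351 to 0.454 in knockout and 0.413 to 0.451 in wild-type cultures. LYZ had no value on the array of knockout replicate 1, so the sum of 0.351 there leaves LYZ out and is not comparable with the others. The sum too joins opposite changes, with TLR4 (1.63) and CTSK (1.28) called higher and LYZ (-1.69, from 2 knockout values) called lower. CSF3R and CD14, among others, were not above background. In the erythroid list, 3 globins together reached 0.112 to 0.114 in knockout and 0.0941 to 0.11 in wild-type cultures, with HBAD (0.33) called higher and HBBA (-0.93) lower. HBBA was near the background limit, with a mean log2 signal of -6.32 in knockout cultures. It was above background on 2 of the 3 knockout arrays and passed the filter through the wild-type arrays only. The other probe in that list matched ALAS1, which is not confined to erythroid cells (0.05, not called). The part of these markers in the changes described here was not tested. In bulk RNA, fewer cells with a transcript and less of it per cell cannot be told apart.

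On the brightest probes, with arrays scaled to their 75th percentile, all but 1 of the measured replication and repair genes differed by less than 2-fold. The genes went in both directions. Of the 44 genes, 43 were well above background on all 6 arrays; POLK, a translesion polymerase gene, was not on any, and is not tested. Among the 43, 15 were called higher and 15 lower in the knockout (limma, Benjamini-Hochberg adjusted p under 0.05 over all features), and 13 were not called, which does not show that they were equal. That is 69.8% called, against 69.2% of all 19802 features, so being called does not set these genes apart. The shares by direction were 34.9% higher, against 40.4% of features and 38.3% of named genes, and 34.9% lower, against 28.8% and 31.5%. With each array centred on its median instead of its 75th percentile, 12 members were higher and 19 lower, and 6378 features were higher and 6886 lower, so the split between directions moves with the scaling. The median log2 fold change was 0.03 for the members and 0.089 for all features, and the median size of a change was 0.29 and 0.34. POLH, called lower, was the member past 2-fold, 1 of 43, whereas 14.9% of all features and 13.3% of named genes were called and past 2-fold. These sets differ in brightness, since 17772 of the 19802 features had a probe above background on all 6 arrays, as all 43 members did. The share past 2-fold among those features was not counted. GINS1 (-0.96) lay just short of 2-fold, and passed it on its other probes (-1.12 and -1.17) and with median centring (-1.05). The groups did not overlap for 34 of the 43 genes (79.1%), against 74.5% of all features and 75.9% of named genes. Replicate spread was small: the median SD was 0.06 in knockout and 0.05 in wild-type cultures, and no SD passed 0.15.

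**Figure D1:**
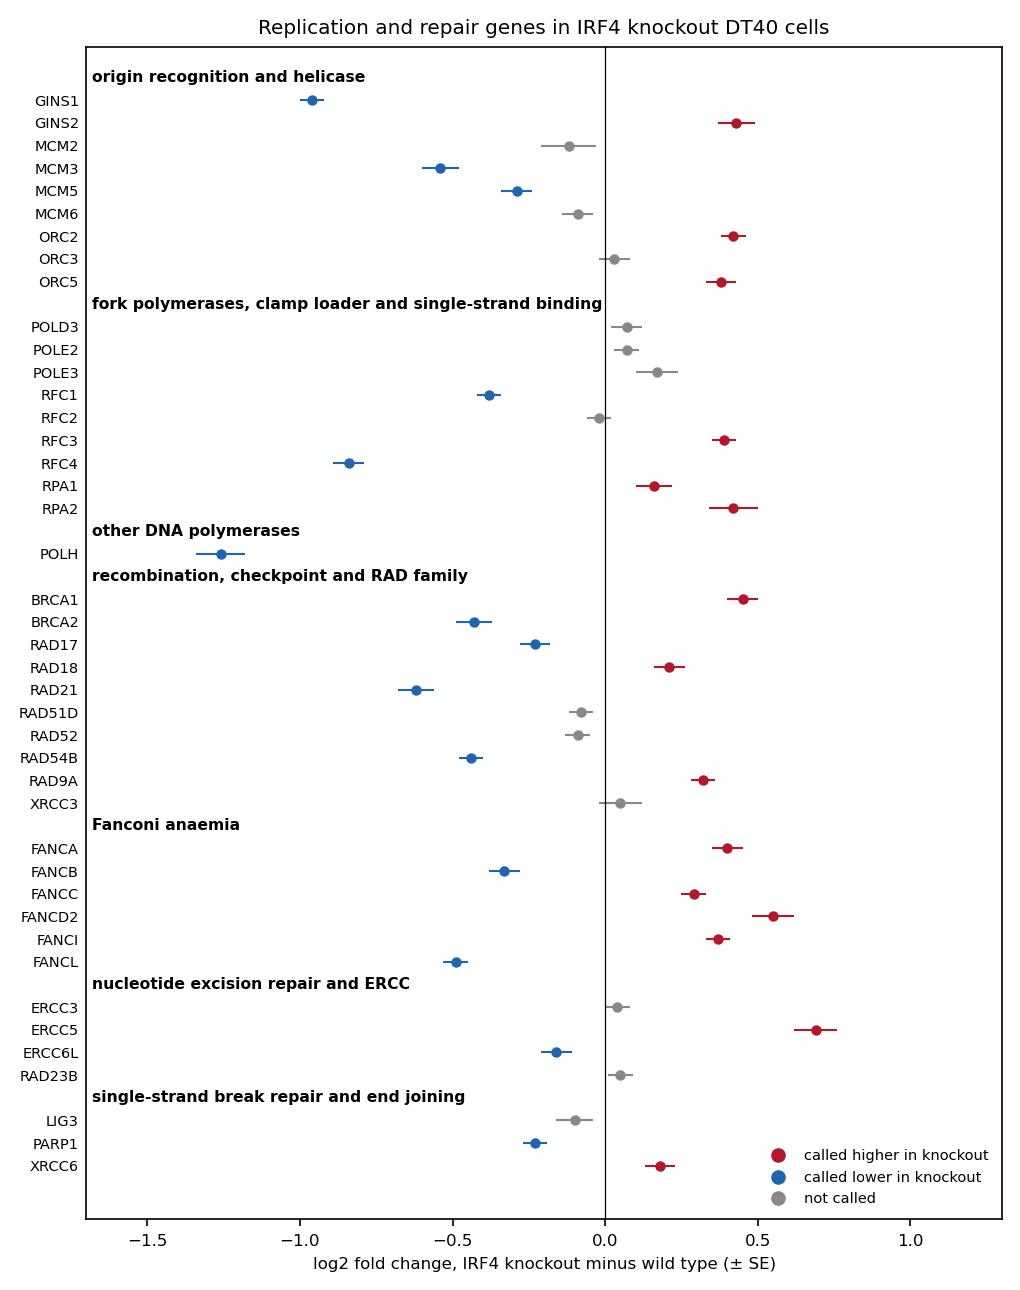
Log2 fold change (knockout minus wild type, horizontal axis) with its limma standard error for the measured genes, by role, without 1 gene that is not shown; red points were called higher in the knockout, blue lower, grey not called. Rises reach 0.69 (ERCC5) and falls -1.26 (POLH), and red and blue points stand beside each other in most roles.

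Slides 1 and 2 each carried an array of both groups, and the remaining arrays lay alone on slides 3 and 4. In all 30 called members the groups did not overlap. Their differences within slides 1 and 2 therefore had to take the direction of the call and are no further support for it. The slides' differences for a called member lay at most 0.25 apart. With slide as a fixed block, a fit that rests on the 4 arrays of the shared slides, 12 members were called higher and 11 lower, against 5901 and 4590 of all features (53% called). The values below are log2 signals relative to each array's 75th percentile, in the order of replicates 1 to 3. They compare cultures for 1 probe and say nothing of which gene is more abundant, since probes differ in brightness.

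Of 9 origin recognition and helicase genes, 3 were called higher, 3 lower and 3 not called (median log2 fold change -0.09). Over all features 69.2% were called, 40.4% higher and 28.8% lower. No role here or below has enough genes to be set apart from these shares. GINS1, a subunit of the GINS complex that joins the helicase, stood at 3.75, 3.73 and 3.72 in knockout cultures and at 4.73, 4.69 and 4.65 in wild-type cultures. The groups lay far apart, and GINS1 was 1.95-fold lower in the knockout (log2 fold change -0.96 ± 0.04, limma adjusted p = 4.1e-06). Its dimmer probes gave -1.12 and -1.17. The brightest probe gave -1.05 with median centring and -1.03 with quantile normalization. With the median of its chromosome subtracted, the value of GINS1 was -0.57 (limma adjusted p = 1.8e-05). Its partner subunit GINS2 moved the other way, at -1.87, -1.72 and -1.89 in knockout cultures and -2.25, -2.21 and -2.30 in wild-type cultures. GINS2 was thus 1.35-fold higher (0.43 ± 0.06, limma adjusted p = 0.00087), with no overlap between the groups. It had only 1 probe, so no other probe can be set beside that rise.

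Among the measured subunits of the MCM hexamer, MCM3 stood at 3.84, 3.87 and 3.76 in knockout cultures and at 4.48, 4.31 and 4.29 in wild-type cultures. MCM3 fell by 0.54 on the log2 scale (SE 0.06, limma adjusted p = 0.00049), and its dimmer probes fell further, by 0.82 and 0.94. With the median of its chromosome (-0.39) subtracted, the brightest MCM3 probe was at -0.15 and not called (limma adjusted p = 0.073). The dimmer MCM3 probes were not refitted in that setting, and both fell by more than that median. MCM5 stood at 0.57, 0.62 and 0.70 in knockout cultures and at 0.91, 0.93 and 0.92 in wild-type cultures, a fall by 0.29 (SE 0.05, limma adjusted p = 0.0016). Neither gene's groups overlapped. MCM2 (-0.12 ± 0.09, limma adjusted p = 0.29) and MCM6 (-0.09 ± 0.05, limma adjusted p = 0.17) were not called and their groups overlapped. MCM6 was called lower without knockout replicate 2 (-0.13, limma adjusted p = 0.045), with median centring (-0.18, limma adjusted p = 0.041) and with chromosome medians subtracted (-0.19, limma adjusted p = 0.013), but its dimmer probes gave -0.02 and 0.07. MCM2 was called lower with chromosome medians subtracted (-0.35, limma adjusted p = 0.012). MCM2 had wild-type values of 4.80, 5.05 and 5.08 around knockout values of 4.93, 4.91 and 4.75, and its dimmer probe was called lower (-0.24, adjusted p = 0.0011).

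The origin recognition subunits that were called rose. ORC2 stood at 2.61, 2.69 and 2.57 in knockout cultures and at 2.22, 2.18 and 2.22 in wild-type cultures, 1.33-fold higher (0.42 ± 0.04, limma adjusted p = 0.00029), and its other probe gave 0.45. ORC5 rose by 0.38 on its brightest probe (A_87_P035620; SE 0.05, limma adjusted p = 0.00055) and by 0.38 on probe A_87_P127168. Another ORC5 probe, A_87_P241433, fell by the same amount: it stood at 0.09 ± 0.06 in knockout and 0.47 ± 0.02 in wild-type cultures (SD, n = 3 each; limma adjusted p = 0.00036). Which of these probes reports the ORC5 transcript was not tested, so its direction is uncertain. ORC3 was not called on its brightest probe (0.03 ± 0.05, limma adjusted p = 0.58), and of its other probes A_87_P192803 was called lower (-0.34) and A_87_P036392 was not called (0.05). With the median of its chromosome (-0.39) subtracted, the brightest ORC3 probe was called higher (0.42, limma adjusted p = 0.00021). The ORC3 probe called lower was not refitted in that setting, and its value of -0.34 lies near that median.

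**Figure D2:**
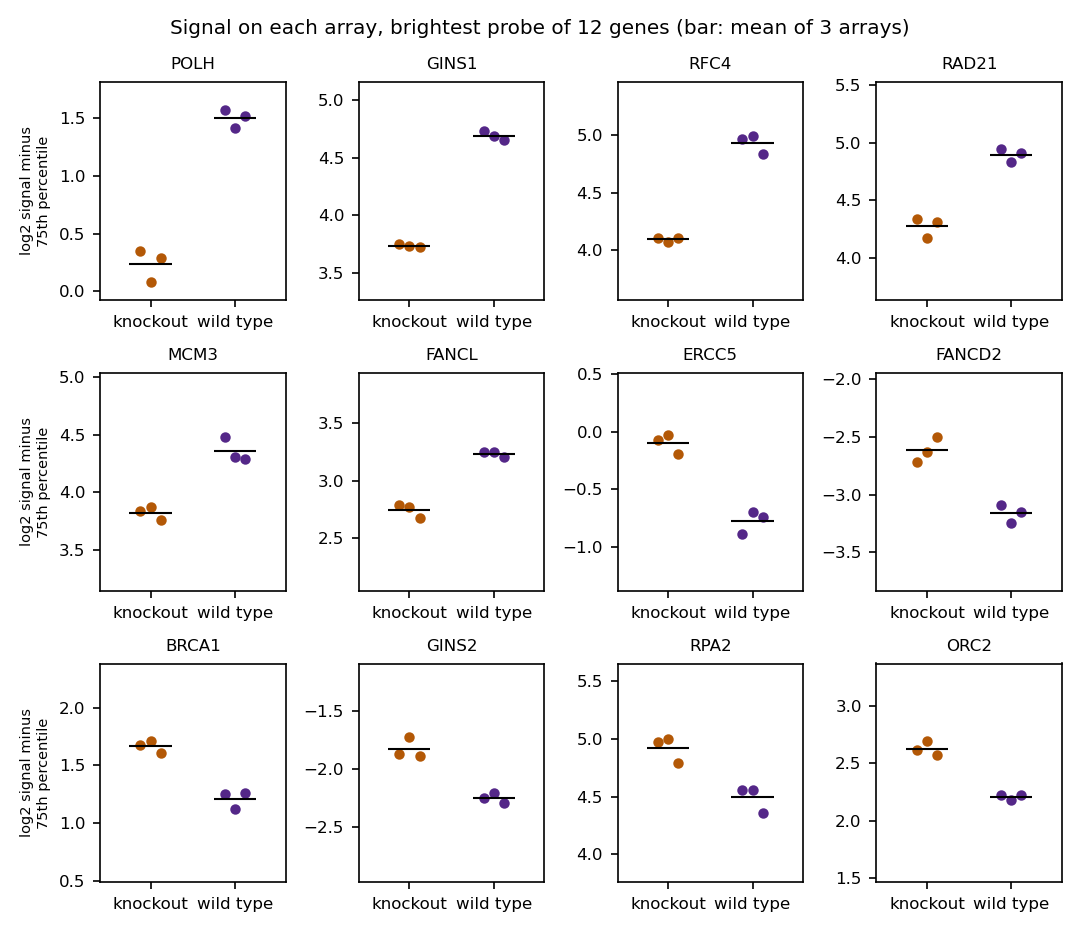
Log2 signal minus the array's 75th percentile (vertical axis, same span in each panel) on the 3 knockout and 3 wild-type arrays for 12 genes, with a bar at the mean of each group. The groups are separate in every panel, with POLH, GINS1, RFC4, RAD21, MCM3 and FANCL lower and ERCC5, FANCD2, BRCA1, GINS2, RPA2 and ORC2 higher in the knockout.

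At the fork, 3 of 9 genes were called higher, 2 lower and 4 not called (median 0.07). The clamp loader subunits moved apart. RFC4, a small subunit, stood at 4.11, 4.07 and 4.11 in knockout cultures and at 4.97, 4.99 and 4.84 in wild-type cultures, 1.78-fold lower (-0.84 ± 0.05, limma adjusted p = 2.2e-05), and its other probe gave -0.85. RFC4 lies on a chromosome with a median of -0.65, and with that subtracted it was at -0.19 (limma adjusted p = 0.011). RFC1, the large subunit, fell by 0.38 (SE 0.04, limma adjusted p = 0.00027), with knockout values of 2.99, 3.02 and 2.92 and wild-type values of 3.35, 3.36 and 3.37. All 4 RFC1 probes were called lower, between -0.48 and -0.38. RFC3, another small subunit, rose by 0.39 (SE 0.04, limma adjusted p = 0.00014), at 0.94, 0.93 and 0.91 in knockout and 0.57, 0.52 and 0.53 in wild-type cultures. RFC2 was not called (-0.02 ± 0.04, limma adjusted p = 0.70), and neither was either of its dimmer probes, although with chromosome medians subtracted it was called lower (-0.14, limma adjusted p = 0.022).

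The subunits of RPA, which binds single-stranded DNA, both passed the test upward with the main scaling. RPA2 stood at 4.97, 5.00 and 4.79 in knockout cultures and at 4.56, 4.56 and 4.36 in wild-type cultures, 1.34-fold higher (0.42 ± 0.08, limma adjusted p = 0.0042). Its chromosome's genes shifted up by a median of 0.51, and with that subtracted the sign of RPA2 turned (-0.08, limma adjusted p = 0.39). RPA1 was at the edge of the test (0.16 ± 0.06, limma adjusted p = 0.047) and was not called with median centring (0.06, limma adjusted p = 0.34), nor when any array but wild-type replicate 1 was left out (0.12 to 0.18). Its dimmer probes both rose by 0.26. The polymerase subunit genes POLD3 (0.07 ± 0.05) and POLE2 (0.07 ± 0.04) were not called and turned to -0.02 with median centring. POLE3, a histone-fold subunit of polymerase epsilon, was not called on its brightest probe (0.17 ± 0.07, limma adjusted p = 0.059), while its 3 other probes were called higher (0.12, 0.34 and 0.36), and so was the brightest without wild-type replicate 2. The brightest POLE3 probe was at 0.08 with median centring (limma adjusted p = 0.34). With chromosome medians subtracted it was at 0.01 (limma adjusted p = 0.88).

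POLH encodes polymerase eta, which copies past ultraviolet lesions and, in mammalian B cells, adds mutations at A:T pairs during somatic hypermutation. It had the largest change among the 43 genes. POLH stood at 0.35, 0.08 and 0.29 in knockout cultures and at 1.57, 1.42 and 1.52 in wild-type cultures, 2.40-fold lower (-1.26 ± 0.08, limma adjusted p = 3.4e-05). Its other probes, A_87_P021653 and A_87_P281138, fell by 1.19 and 0.95. Within slides 1 and 2 the log2 difference of POLH was -1.22 and -1.34. Its chromosome's genes shifted down by a median of -0.39, and with that subtracted POLH was at -0.87 (limma adjusted p = 0.00011).

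Of 11 recombination, checkpoint and RAD family genes, 3 were called higher, 5 lower and 3 not called (median -0.09). The breast cancer genes of the recombination pathway moved in opposite directions. BRCA1, which acts early in the processing of broken ends, stood at 1.68, 1.71 and 1.61 in knockout cultures and at 1.25, 1.12 and 1.26 in wild-type cultures, 1.37-fold higher on its only probe (0.45 ± 0.05, limma adjusted p = 0.00042). BRCA2, a mediator of strand exchange, stood at 0.83, 0.64 and 0.68 in knockout cultures and at 1.07, 1.15 and 1.21 in wild-type cultures, 1.34-fold lower (-0.43 ± 0.06, limma adjusted p = 0.0014). Its second probe, at a much lower signal, gave -0.42. The strand exchange mediators RAD51D (-0.08 ± 0.04) and XRCC3 (0.05 ± 0.07) and the annealing factor RAD52 (-0.09 ± 0.04) were not called. With median centring RAD51D (-0.17, limma adjusted p = 0.013) and RAD52 (-0.18, limma adjusted p = 0.020) were called lower. Their dimmer probes were also called lower (-0.17 for RAD51D and -0.19 for RAD52). Of the dimmer XRCC3 probes, 1 was called higher (0.22, limma adjusted p = 0.0033) and 1 was not called (0.07).

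RAD21, the cleavable subunit of cohesin, was the largest fall in this role. It stood at 4.34, 4.17 and 4.31 in knockout cultures and at 4.94, 4.83 and 4.91 in wild-type cultures, 1.54-fold lower (-0.62 ± 0.06, limma adjusted p = 0.00018). RAD54B, a DNA translocase of recombination, fell by 0.44 (SE 0.04), with knockout values of 1.52, 1.57 and 1.46 and wild-type values of 1.95, 1.94 and 1.99. Both lie on a chromosome with a median of -0.43. With that subtracted RAD21 was at -0.20 (limma adjusted p = 0.022) and RAD54B at -0.02 (limma adjusted p = 0.76). The checkpoint clamp subunit gene RAD9A rose (0.32 ± 0.04, limma adjusted p = 0.00061) whereas RAD17, whose product loads that clamp, fell by 0.23 (SE 0.05, limma adjusted p = 0.0064, or 0.092 in the fit blocked on slide). RAD18, a ubiquitin ligase for PCNA, rose by 0.21 (SE 0.05, limma adjusted p = 0.0082) and was not called with median centring (0.12, limma adjusted p = 0.076) or in the fit blocked on slide (adjusted p = 0.068).

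All 6 Fanconi anaemia genes measured were called, 4 higher and 2 lower, with a median of 0.33. Of all features 69.2% were called, 40.4% higher and 28.8% lower, and 6 genes are too few to set the pathway apart from these shares. FANCD2 and FANCI, the pair that is ubiquitinated when the pathway is switched on, were both higher. FANCD2 stood at -2.72, -2.63 and -2.50 in knockout cultures and at -3.09, -3.25 and -3.15 in wild-type cultures, 1.46-fold higher (0.55 ± 0.07, limma adjusted p = 0.00077). FANCI rose by 0.37 (SE 0.04), at -1.25, -1.14 and -1.16 in knockout and -1.57, -1.52 and -1.57 in wild-type cultures. The core complex that carries out the ubiquitination divided. Its members FANCA (0.40 ± 0.05, limma adjusted p = 0.00044) and FANCC (0.29 ± 0.04, limma adjusted p = 0.00072) rose. FANCL, the ubiquitin ligase subunit, fell by 0.49 (SE 0.04, limma adjusted p = 0.00011), with knockout values of 2.79, 2.77 and 2.68 and wild-type values of 3.25, 3.25 and 3.21. FANCB fell by 0.33 (SE 0.05, limma adjusted p = 0.0019) and by 0.65 on its other probe. FANCL lies on the chromosome with a median of -0.39, and with that subtracted it was at -0.11 and not called (limma adjusted p = 0.053). The rises were also smaller with chromosome medians subtracted, and kept their calls. FANCD2 was then at 0.31, FANCI at 0.30, FANCA at 0.29 and FANCC at 0.12 (limma adjusted p = 0.021), while FANCB was at -0.42.

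Among the genes of nucleotide excision repair and the ERCC series, 1 of 4 was higher, 1 lower and 2 not called. ERCC5, the endonuclease that cuts on the 3′ side of a lesion, had the largest rise of the 43 genes. It stood at -0.07, -0.03 and -0.19 in knockout cultures and at -0.89, -0.70 and -0.74 in wild-type cultures, 1.61-fold higher (0.69 ± 0.07, limma adjusted p = 0.00023), and its other probe rose by 0.64. ERCC3, a helicase of the TFIIH complex, was not called (0.04 ± 0.04, limma adjusted p = 0.43, and -0.05 with median centring). Its dimmer probe was called higher (0.12, limma adjusted p = 0.043). RAD23B, a partner of the damage sensor XPC, was not called either (0.05 ± 0.04, and -0.04 with median centring). ERCC6L, which acts on chromatin bridges in mitosis and not in excision repair, fell by 0.16 (SE 0.05, limma adjusted p = 0.025). That call was lost without knockout replicate 3, without wild-type replicate 2 and without wild-type replicate 3, when the value was -0.12, -0.14 and -0.17. It was also lost in the fit blocked on slide (-0.13, adjusted p = 0.18) and with no filter on dim probes (adjusted p = 0.072).

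Of the break repair and end joining genes, PARP1, which senses broken strands, stood at 5.62, 5.68 and 5.64 in knockout cultures and at 5.90, 5.87 and 5.86 in wild-type cultures. PARP1 fell by 0.23 (SE 0.04, limma adjusted p = 0.0016), and its dimmer probes by 0.26 and 0.48. In the fit blocked on slide PARP1 was not called (adjusted p = 0.062). It lies on the chromosome with a median of -0.39, and with that subtracted the brightest PARP1 probe was called in the opposite direction (0.16, limma adjusted p = 0.0056). The dimmer probes were not refitted in that setting, and the one at -0.48 fell by more than that median. XRCC6, which encodes Ku70 of the end joining pathway, rose by 0.18 (SE 0.05, limma adjusted p = 0.014) and was not called with median centring (0.09, limma adjusted p = 0.18) or without wild-type replicate 3 (0.17, limma adjusted p = 0.051). The XRCC6 call was also lost in the fit blocked on slide (adjusted p = 0.069), with normexp background correction (adjusted p = 0.061) and with chromosome medians subtracted (0.09, adjusted p = 0.13). LIG3, the ligase of single-strand break repair, was not called (-0.10 ± 0.06, limma adjusted p = 0.20), although all 3 of its probes gave -0.10, and it was called lower with median centring (-0.19, limma adjusted p = 0.044). It was also called lower with quantile normalization (-0.16, limma adjusted p = 0.038) and in the authors' table (-0.16, limma adjusted p = 0.042). The same held with chromosome medians subtracted (-0.22, limma adjusted p = 0.016).

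Subunits of the same complex can be set against each other within an array, a comparison that a constant subtracted from an array does not move. Over all 24 pairs of measured subunits in ORC, MCM, GINS, RFC, RPA, the Fanconi core complex and the FANCD2 and FANCI pair, the fold changes of 8 pairs differed by at least 0.5 on the log2 scale. GINS1 changed by 1.38 less than GINS2 (-1.38 ± 0.06, SE), and RFC3 by 1.22 more than RFC4 (SE 0.05). FANCA differed from FANCL by 0.89 (SE 0.07) and from FANCB by 0.72 (SE 0.04), and FANCC from FANCL by 0.78 (SE 0.04). Pairs with 1 subunit on a shifted chromosome moved most when chromosome medians were subtracted, an alternative added for pairs after the data were seen. GINS1 minus GINS2 was then -0.89, RFC3 minus RFC4 0.48, FANCA minus FANCL 0.40 and FANCC minus FANCL 0.23, whereas FANCA minus FANCB (0.71) and RFC1 minus RFC3 (-0.77 in both) hardly moved. In that setting 4 pairs differed by at least 0.5, and the sign of the difference turned in 8 of the 24 pairs. ORC2 minus ORC5 was 0.04 ± 0.03 with the brightest ORC5 probe and 0.80 with the ORC5 probe that was called lower, also added after the data were seen. An exact two-sided permutation test gave the smallest possible p of 0.1 for 20 of the 24 pairs and 0.12 after Benjamini-Hochberg adjustment, so no pair could pass 0.05 in this design.

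Probes of the same gene gave similar changes for most members. Of the 95 probes 93 passed the background filter, and 33 genes had more than 1 such probe. In 19 of the 33 every probe was called in the same direction, in 6 none was called, in 7 some were, and ORC5 alone had probes called in opposite directions. The median spread between the probes of a gene was 0.10 on the log2 scale. A further 10 members had 1 passed probe, among them GINS2, RFC3, RPA2, FANCA, FANCD2 and BRCA1. Their directions, and the pair differences that include them, rest on that probe alone. The dimmer probes of GINS1, MCM3, FANCB and PARP1 gave larger falls than the brightest. With the mean of the probes in place of the brightest, 18 members were called higher and 18 lower, against 8146 and 5771 of all features (70.3% called).

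**Figure D3:**
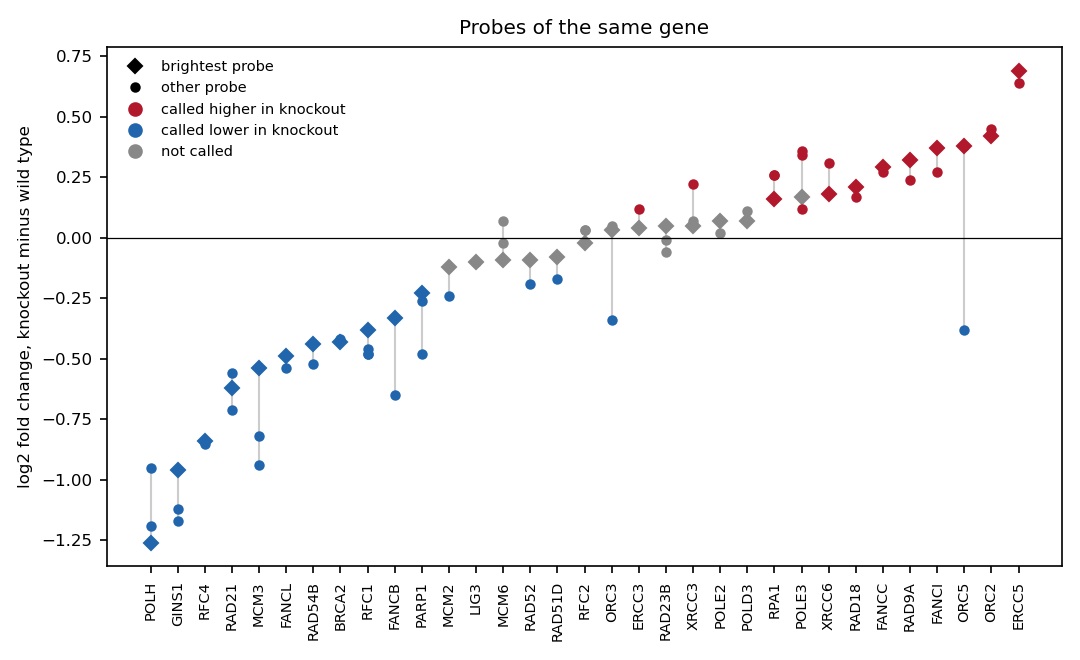
Log2 fold change (knockout minus wild type, vertical axis) of the measured probes of genes with more than 1; diamonds are the brightest probe, circles the others, coloured by call. Probes of a gene lie close together for most genes, while ORC5 has probes at 0.38 and -0.38.

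Of the 15 falls, 8 were on chromosomes whose named genes were lower as a whole. On the GRCg7b assembly, GINS1, MCM3, ORC3, POLH, FANCL and PARP1 share a chromosome with a median log2 fold change of -0.39 over 307 named genes. RAD21 and RAD54B share one with a median of -0.43 over 337 genes, which also carries IRF4, and RFC4 lies on one with a median of -0.65 over 102 genes. Of these 9 members 8 were called lower, ORC3 was not called, and none was higher (median -0.54). Of the 33 members on chromosomes with medians within 0.25 of that of all placed genes (0.052), 14 were higher, 7 lower and 12 not called (median 0.07). Over all features 40.4% were higher and 28.8% lower, but the shares of all genes called on each set of chromosomes were not counted. Whether the members differ from their neighbours there is thus not shown by these counts. The limit of 0.25 was chosen after the data were seen. RPA2 was the member on the chromosome that shifted up (0.51 over 65 genes). Falls were thus also seen away from the shifted chromosomes, among them BRCA2, RFC1, FANCB, MCM5, RAD17 and ERCC6L, at between -0.43 and -0.16. With each chromosome's median subtracted, over 3830 placed genes, 13 members were higher and 18 lower, against 1276 and 1310 of the placed genes (67.5% called). Of the 9 members on the lowered chromosomes, POLH (-0.87), GINS1 (-0.57), RAD21 (-0.20) and RFC4 (-0.19) were then called lower at smaller values. MCM3, FANCL and RAD54B were not called, and ORC3 (0.42) and PARP1 (0.16) were called higher. These values are of the brightest probes, and the dimmer probes were not refitted in that setting. What moved these chromosomes was not tested.

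**Figure D4:**
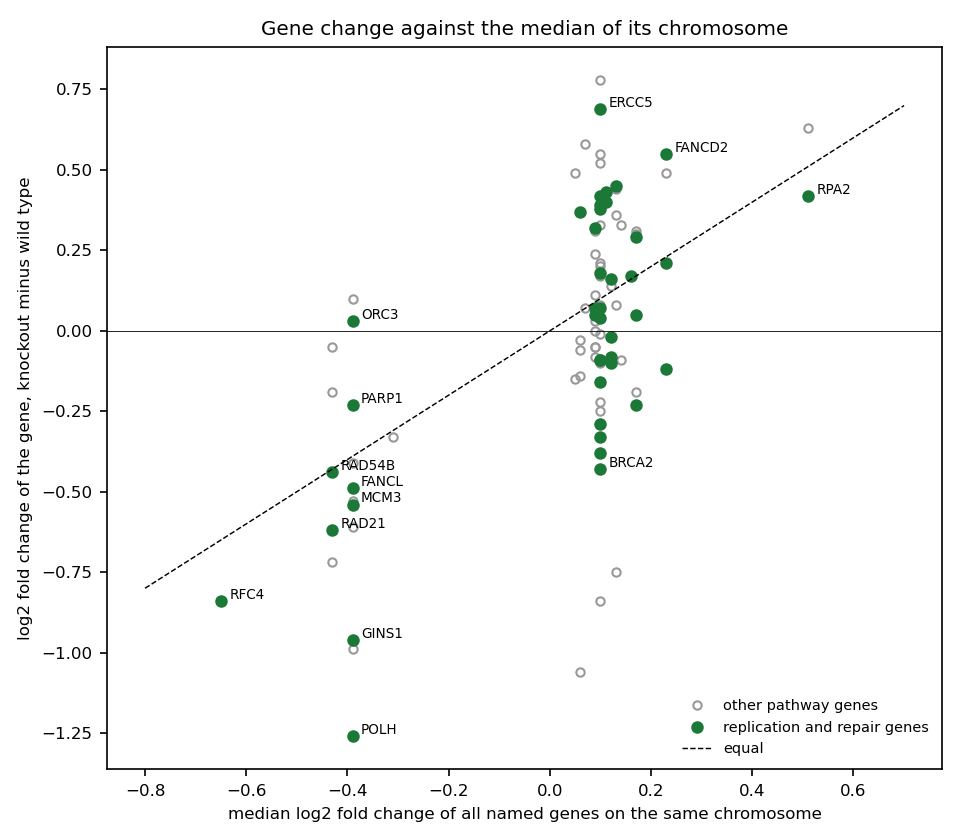
Log2 fold change of each gene (vertical axis) against the median over all named genes of its chromosome (horizontal axis); green points are the replication and repair genes, open circles the 55 other genes of these pathways, and the dashed line marks equal values. POLH and GINS1 lie well below the line, RFC4, RAD21 and RAD54B near it, and most rises stand above chromosome medians close to 0.1.

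Other genes of replication and repair, taken from a list of pathway genes outside these symbols, had a similar division: of 55 tested, 20 were higher, 16 lower and 19 not called, with a median of 0.03. Over all features 69.2% were called, 40.4% higher and 28.8% lower, so being called does not set this list apart either. Of the genes called, the largest falls were NEIL1, a glycosylase of base excision repair (2.09-fold, -1.06 ± 0.10, limma adjusted p = 0.00015), and RNF8, a ubiquitin ligase at broken ends (1.98-fold, -0.99 ± 0.04). CHEK1, the checkpoint kinase of stalled forks, stood at 0.78, 0.70 and 0.80 in knockout cultures and at 1.66, 1.55 and 1.58 in wild-type cultures, 1.79-fold lower (-0.84 ± 0.05, limma adjusted p = 2.2e-05). CENPS, a partner of the Fanconi helicase FANCM, fell by 0.75 (SE 0.06), and GMNN, which encodes the licensing inhibitor geminin, by 0.72 (SE 0.07). The largest rises were DCLRE1C, the Artemis nuclease of end joining (1.72-fold, 0.78 ± 0.05, limma adjusted p = 3.6e-05), and CLSPN, the Claspin adaptor that works with CHEK1 (0.63 ± 0.07). RMI2, of the BLM dissolvase complex (0.58 ± 0.06), the damage kinase gene ATM (0.55 ± 0.04) and the fork remodeller gene SMARCAL1 (0.52 ± 0.04) followed. PCNA, the sliding clamp itself, fell by 0.15 (SE 0.05, limma adjusted p = 0.030). It was not called in the fit blocked on slide (-0.11, limma adjusted p = 0.25) or on replicate number (limma adjusted p = 0.06). RNF8 and GMNN lie on the chromosomes with medians of -0.39 and -0.43, and CLSPN on that with 0.51. Of the 9 listed genes on the chromosomes shifted down, 7 were lower, none was higher, and PRKDC and RRM2 were not called.

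**Figure D5:**
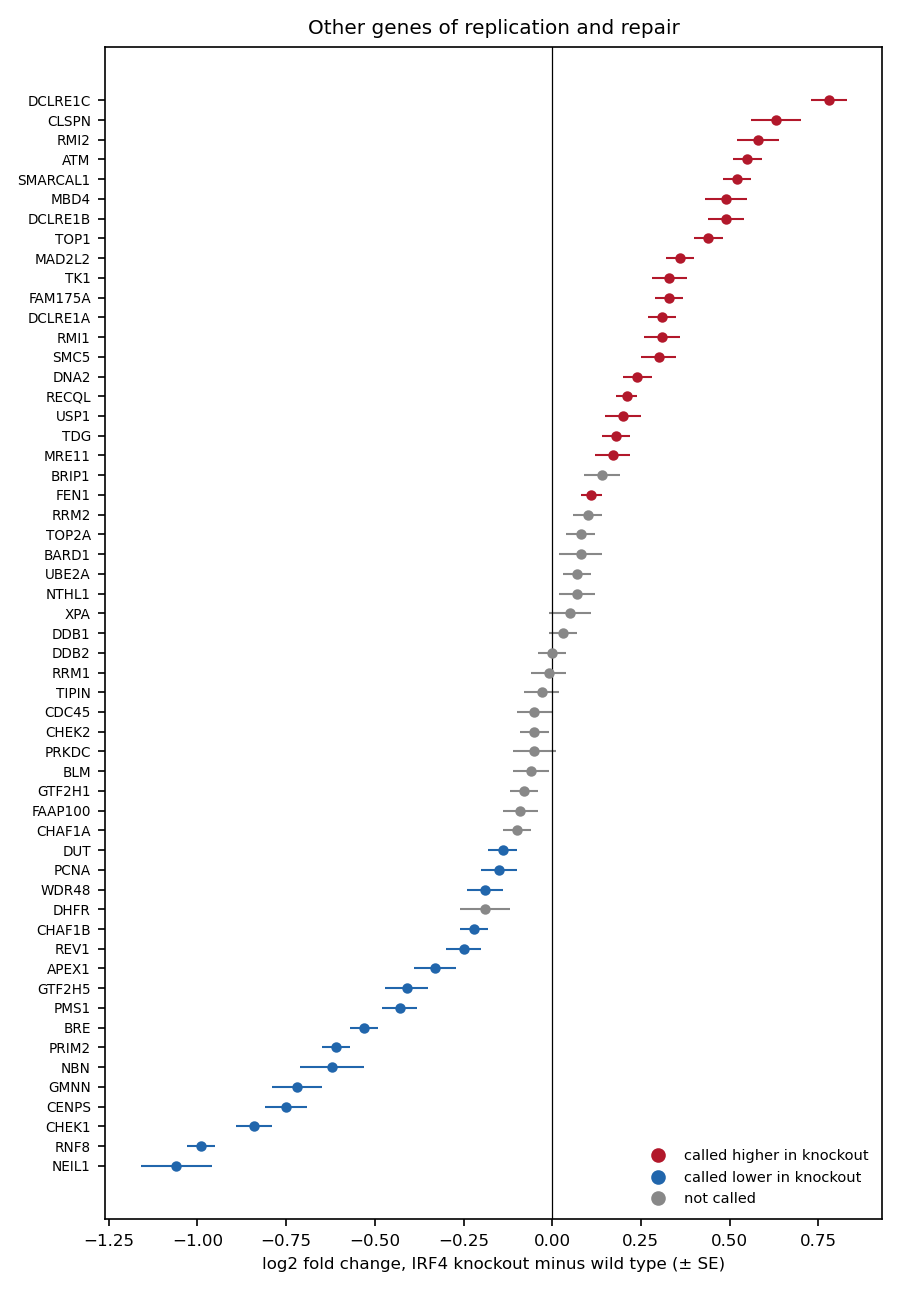
Log2 fold change (knockout minus wild type, horizontal axis) with its limma standard error for the 55 other replication and repair genes, sorted by value; red points were called higher in the knockout, blue lower, grey not called. Values run from -1.06 (NEIL1) to 0.78 (DCLRE1C), with 19 genes not called.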

How the data were processed

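Each of the 6 cultures was hybridised to 1 one-colour Agilent chicken array. Per the file headers, the authors read the arrays with Feature Extraction 10.7.1.1, and the deposited processed green intensity is background-subtracted and not scaled between arrays; the deposited flags are codes of 0 and 1. The array annotation names the galGal3 build. The authors' deposited table holds linear intensity values with 1 common distribution (median 225.7 in each column), correlating at r of 0.999 or above with the log2 scanner signals. Limma and R 2.12.0 are listed, without a role, per the submitters' processing notes. The labels' dye field reads biotin, against a Cy3 protocol, which was followed.

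Signals were taken as log2, each array's 75th percentile subtracted, 1417 control spots and 72 to 152 outlier spots an array left out, and spots of a probe averaged. Probes had to be well above background on all 3 arrays of a group. Unversioned accessions were matched to a RefSeq table of GRCg7b (10691 of 43603 probes, 24.5%), used for names and shared chromosomes, with no coordinates printed. Of 98 symbols under the naming rule 44 matched a probe; the others, all mismatch repair genes included, are not analysed here. Features are named genes and unnamed accessions (31529, of which 19802 passed), each by its brightest probe. The contrast of knockout minus wild type was fitted in R 4.3.3 with limma 3.58.1 (lmFit, eBayes, two-sided, group only), Benjamini-Hochberg adjusted over all features, threshold 0.05; probe-level values were adjusted over all probes that passed. The procedure was also run on simulated data in which few features changed, unlike in these data. No result here rests on that run. The number of arrays limits the precision, and p-values cover the spread between cultures, not between clones.

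Members and lists were chosen with earlier results of these data known. Genes named are IRF4, the largest changes, subunits of complexes, and members with discordant or dim probes, so nearly every member, except that 1 member is not reported here; of the other pathway genes, the 5 largest rises and falls, and also PCNA, CHEK1's per-array values, PRKDC and RRM2, chosen after their values were seen. Alternatives were other scalings (array median, quantile), normexp background correction on median signals, the authors' table, other filters, the mean of probes, replicate and slide blocks, subtracted chromosome medians, and each array left out.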

Additional observations from a re-analysis of the deposited data

How the results depend on the processing

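Across 18 alternatives the number of members called higher lay between 12 and 18 and the number called lower between 11 and 19, against 15 and 15. Leaving out 1 array in turn gave 13 to 15 higher and 14 to 16 lower. IRF4 kept its call in all 18. Of the 30 called members, 19 kept direction and call under every alternative, among them POLH, GINS1, RFC4 (at -0.93 to -0.19), RAD21, ERCC5, FANCD2, BRCA1 and BRCA2. Of the 13 uncalled members, 0 stayed uncalled in the same direction under every alternative. The same shares over all features were not counted. Direction turned for these values: with median centring ERCC3 (-0.05), ORC3 (-0.06), POLD3 (-0.02), POLE2 (-0.02), RAD23B (-0.04) and XRCC3 (-0.04); with the mean of probes ORC3 (-0.09), RAD23B (-0.01) and RFC2 (0.01); with slide as a fixed block RFC2 (0.0044) and XRCC3 (-0.01); and with chromosome medians subtracted ERCC3 (-0.06), PARP1 (0.16), POLD3 (-0.03), POLE2 (-0.02), RAD18 (-0.02), RAD23B (-0.11), RPA2 (-0.08) and XRCC3 (-0.04). PARP1, RAD18 and RPA2 were called with the settings of the report and the others were not. The cause was not tested. RPA1 lost its call in 9 alternatives, including 5 of the 6 that left out 1 array.

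Same-numbered cultures did not deviate together (r between -0.026 and -0.012 for the 3 pairs), so the signals showed no pairing by replicate number. With 3 cultures a group, a weak pairing could be missed. With the replicate block POLE3 gained a call (adjusted p = 0.041), 16 members were higher and 15 lower, and IRF4 was at -4.21. As a random block, slide had a correlation of 0.016 and gave 15 higher and 15 lower. Differences under about 0.15 on the log2 scale were mostly not resolved with 3 arrays a group.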
